A study of Danio rerio with 6 samples.

Results

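The genes of glycolysis, of its pentose phosphate branch and of the response to low oxygen were followed across single cells sorted from larval zebrafish muscle after a needle injury. The list held 44 zebrafish gene names. A row was taken where its symbol equalled a name, ignoring case, or equalled it without the final a or b where the full name was absent. In this way 14 names matched in full and 23 without the final letter, and together they gave 38 of 25131 gene rows. The names hk2, pgk1, pkma, pkmb, ldha, hif1al and bnip3 had no row under those symbols and were not analysed here. Several rows can carry the same symbol, and their identifiers are then given.

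All larvae were of the TL strain, carried the transgene Tg(mpeg1:mCherry), which labels cells red where the promoter of the macrophage gene mpeg1 is active, and were kept in 0.003% PTU (1-phenyl-2-thiourea, which blocks pigment) from 8 hpf. The injured groups received a needle puncture of the dorsal myotome at 4 dpf (days post fertilisation), and the injury region was dissected at 1 dpi (days post injury, age 5 dpf, 2 libraries), 2 dpi (age 6 dpf, 1 library) and 3 dpi (age 7 dpf, 2 libraries). The uninjured group was 1 library from whole larvae at 4 dpf. Among the injured groups age rose with time after injury, so the parts of age and time cannot be told apart. Live mCherry-positive, DAPI-negative cells were sorted 1 per well into 384-well plates, 1 plate per library, and sequenced by SORT-seq, a plate form of CEL-Seq2 that tags each molecule and reads the 3′ end of its transcript. The labels do not say that the replicates came from separate animals or how many larvae were pooled. A p-value here therefore reflects only how far these libraries spread, which may be technical. The edgeR test used below takes that spread largely from all genes together. A very small p-value therefore does not show that a row's own libraries lie close together.

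Glycolysis splits glucose into pyruvate: hexokinase and phosphofructokinase commit the sugar, aldolase cuts it, and glyceraldehyde-3-phosphate dehydrogenase, phosphoglycerate mutase and enolase carry the lower part, after which lactate dehydrogenase can turn pyruvate into lactate. Hypoxia-inducible factor (HIF) raises many of these genes when its oxygen-dependent hydroxylases, whose product is read by the VHL ubiquitin ligase, slow down. Neutrophils are known to rely strongly on glycolysis and to use the pentose phosphate pathway as a source of NADPH for the oxidative burst, while glycolysis also rises in macrophages on inflammatory activation.

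Of 2304 wells, 1640 held 1000 to 50000 transcripts and were used. Among them 237 were granulocytes, defined by transcripts of npsn (ENSDARG00000010423) and EPX (ENSDARG00000019521) at 0.2% or more of the well's total, and 1403 were not. The injured libraries held 23 and 17 granulocyte wells (1 dpi), 64 (2 dpi), and 52 and 76 (3 dpi), beside 243, 179, 287, 199 and 224 other wells, while the uninjured library held 5 granulocyte wells and 271 others. Median totals per well ran from 2206 to 8649 transcripts in granulocytes of injured libraries and from 3457 to 12329 in the other wells. Listed granulocyte genes other than those of the gate made up 1.93% to 3.13% of granulocyte transcripts and 0.034% to 0.075% of those in other wells. MPEG1 (ENSDARG00000055290), the gene behind the sort, stood at 0 to 25.4 CPM (the usual scaling of a gene's count to the total of the summed wells) in granulocytes of injured libraries and at 278 to 573 CPM in the other wells. Summed macrophage markers lay closer. They made up 0.163% to 0.378% of granulocyte transcripts in injured libraries and 0.463% to 1.18% of those in other wells. The other wells were not all of 1 type: in the uninjured library 209 of 271 held skeletal muscle transcripts at 0.5% or more of the total, and wells marked by genes of metaphocytes, epithelium-like cells of the skin that resemble macrophages, numbered 0 to 22 per library. Transcripts of general leukocyte genes reached 0.2% of the total in 221 of 243 and 177 of 179 other wells at 1 dpi. The numbers were 270 of 287 at 2 dpi, and 147 of 199 and 156 of 224 at 3 dpi. All plates carried the same 384 well numbers, so cells were told apart by library and well number.

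Glycolysis and hypoxia transcripts together made up a larger share of all transcripts in granulocytes than in other wells of the same library. The share in granulocytes was 0.675% and 0.603% in the 1 dpi libraries, 0.698% for 2 dpi and 0.619% and 0.485% for 3 dpi, against 0.525% and 0.453%, 0.463%, and 0.349% and 0.273% in the other wells. The granulocyte share was higher in 5 of 5 injured libraries, and so were the shares of upper and lower glycolysis and of the pentose phosphate genes. Enzymes of lower glycolysis alone gave 0.158% to 0.278% of granulocyte transcripts, against 0.0584% to 0.195% in other wells. The rows grouped here as HIF targets, which leave out the glycolysis genes that HIF also raises, ran the other way as a sum. They gave 0.00155% to 0.00923% in granulocytes and 0.0317% to 0.0519% in other wells. Nearly all of this sum in the other wells was 1 row, NDRG1 (ENSDARG00000032849). Since wells were summed, fewer cells using a gene and less of its RNA per cell cannot be told apart in these sums.

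**Figure D1:**
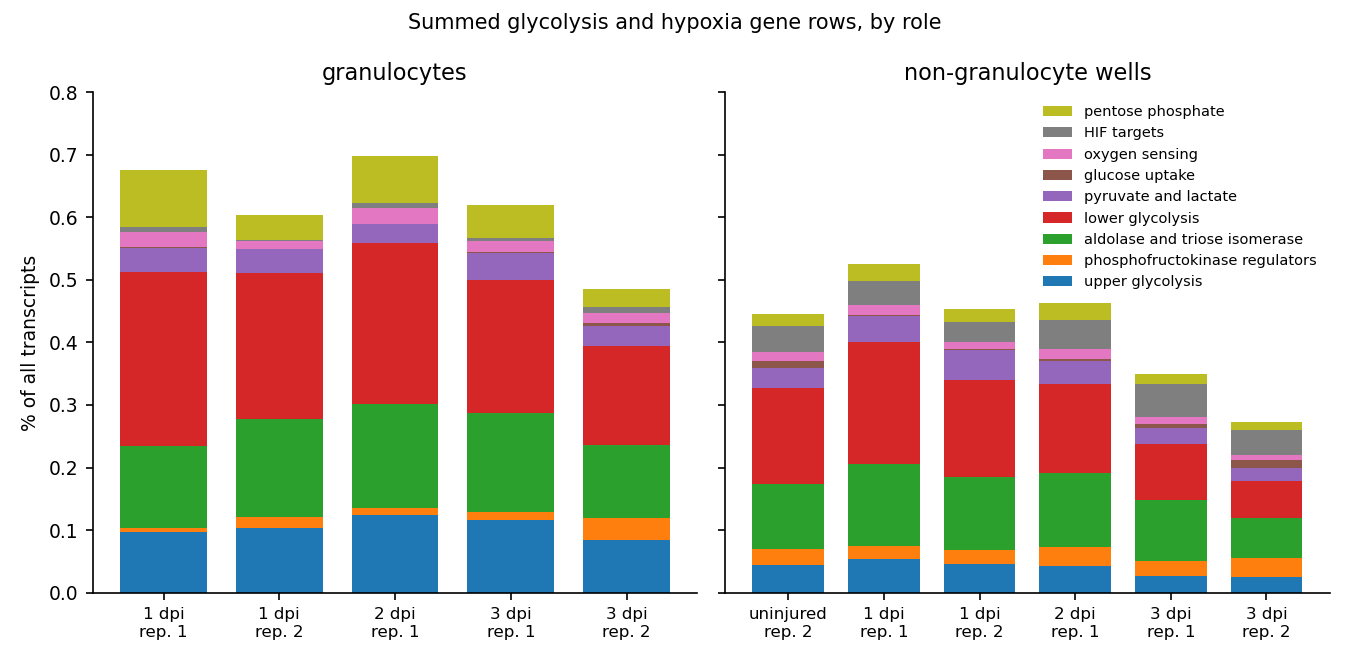
Share of all transcripts (%, vertical axis) that fell on each role of the glycolysis and hypoxia genes, as stacked bars, in granulocytes of the 5 injured libraries (left) and in non-granulocyte wells of all 6 libraries (right). Granulocyte bars reach 0.485% to 0.698%, above the bar of the other wells in the same library, and the bars of the other wells are lowest at 3 dpi, at 0.349% and 0.273%.

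In granulocytes 8 glycolysis and hypoxia rows were higher and 4 were lower than in other wells of the same plates, of 20 that had enough counts to be tested. GAPDH, the glyceraldehyde-3-phosphate dehydrogenase of the standard name, stood apart most, with GPI, PGD, ALDOC, HK1, pgam1b, GAPDHS and HIF1A also higher, while NDRG1, SLC2A1, PFKFB3 and pgam1a were lower. The test was edgeR's quasi-likelihood test on counts summed per library and class, with the library as a block and Benjamini-Hochberg adjustment over all 5873 genes tested. It called 32.4% of all genes, 12.2% higher and 20.2% lower, and a row had to pass a filter on low counts first, so the count over tested rows is a description. The median log2 difference was 0.54 over the 20 rows and -0.26 over all genes tested. Across the libraries 9 rows were higher in 5 of 5 and 3 were lower in 5 of 5, where 13.3% and 23.8% of all genes had such a pattern. Left-out libraries gave 10 to 15 called rows, and leaving the library block out gave 6: GPI, PGD, ALDOC (ENSDARG00000019702), NDRG1, HK1 and GAPDH.

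In upper glycolysis GPI and HK1 were higher. GPI (ENSDARG00000012987), glucose-6-phosphate isomerase, which turns glucose 6-phosphate into fructose 6-phosphate, stood at 666 and 865 CPM (1 dpi), 884 CPM (2 dpi) and 796 and 593 CPM (3 dpi) in granulocytes, against 355 and 289 CPM, 231 CPM, and 138 and 88.3 CPM in other wells. Every granulocyte value lay above every value of the other wells, with means of 761 ± 127 CPM and 220.1 ± 109 CPM (SD, n = 5 each), a log2 difference of 1.91 (SE 0.20, edgeR adjusted p = 4e-20). HK1 (ENSDARG00000039452), hexokinase, which phosphorylates glucose on entry, had 152, 92.7, 229, 279 and 174 CPM in granulocytes and 98.1, 101, 124, 78.8 and 71.0 CPM in other wells, with libraries in the same order. It was higher in 4 of 5 libraries, replicate 2 of 1 dpi being the exception, by 0.97 (SE 0.26, edgeR adjusted p = 0.00107). The phosphofructokinase rows, the committing step of the pathway, did not pass. PFKP (ENSDARG00000028000) had 140.1, 46.4, 87.1, 62.0 and 42.6 CPM in granulocytes and 62.2, 42.3, 54.7, 26.5 and 37.2 CPM in other wells, higher in 5 of 5 libraries but short of the threshold (log2 difference 0.68, edgeR adjusted p = 0.147). PFKL lay at 7.10 to 15.5 CPM in granulocytes and 13.3 to 44.2 CPM in other wells (edgeR adjusted p = 0.339), and PFKP (ENSDARG00000012801) was too low to be tested.

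Both regulators of phosphofructokinase belong to a family of enzymes that make and remove fructose 2,6-bisphosphate, its activator. PFKFB3 (ENSDARG00000001953) had 58.4, 139, 67.2, 93.0 and 220.1 CPM in granulocytes, against 183, 188, 231, 174 and 209 CPM in other wells. It was lower in 4 of 5 libraries, with replicate 2 of 3 dpi the exception, by 0.93 on the log2 scale (-0.93, SE 0.26, edgeR adjusted p = 0.00224). That call was lost without 2 dpi (-0.65, edgeR adjusted p = 0.159) and when every well was thinned to 1000 transcripts (-0.05, edgeR adjusted p = 0.908), which weights wells equally. PFKFB4 (ENSDARG00000029075) ran from 11.7 to 128 CPM in granulocytes and from 36.9 to 103.9 CPM in other wells and did not pass (edgeR adjusted p = 0.499).

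The aldolase step was used unevenly. ALDOC (ENSDARG00000019702), aldolase C, had 339, 711, 565, 434 and 476 CPM in granulocytes, against 271, 255, 287, 135 and 106 CPM in other wells. All 5 granulocyte values lay above all 5 of the other wells, a log2 difference of 1.30 (SE 0.21, edgeR adjusted p = 9.31e-09). Aldolase A had no such gap: ALDOA (ENSDARG00000011665) stood at 278 to 522 CPM in granulocytes and 283 to 524 CPM in other wells (log2 difference -0.14, edgeR adjusted p = 0.661), and ALDOA (ENSDARG00000034470) at 0 to 83.5 CPM and 12.1 to 44.7 CPM (0.69, edgeR adjusted p = 0.254). TPI1 (ENSDARG00000040988), triose phosphate isomerase, which interconverts the products of aldolase, was at 302 to 606 CPM in granulocytes and 231 to 474 CPM in other wells. It was higher in 5 of 5 libraries, with a log2 difference of 0.40 that did not pass (SE 0.19, edgeR adjusted p = 0.102). Rows ALDOC (ENSDARG00000057661) and TPI1 (ENSDARG00000025012) held 0 counts in granulocytes of all injured libraries and at most 2.39 CPM in the other wells, and were not tested.

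In lower glycolysis GAPDH (ENSDARG00000043457) was high in granulocytes and close to absent from the other wells of injured libraries. It stood at 502 and 587 CPM (1 dpi), 510.1 CPM (2 dpi) and 569 and 273 CPM (3 dpi) in granulocytes, against 8.77 and 9.67 CPM, 6.74 CPM, and 9.95 and 10.4 CPM in other wells. The lowest granulocyte library was far above the highest of the other wells, with means of 488 ± 126 CPM and 9.11 ± 1.45 CPM (SD, n = 5 each) and a log2 difference of 5.70 (SE 0.28, edgeR adjusted p = 1.78e-86). GAPDHS (ENSDARG00000039914), a paralog whose mammalian namesake is a sperm enzyme of the same step, was abundant in both classes. It had 1903, 1406, 1785, 1421 and 1108 CPM in granulocytes, against 1508, 1139.7, 1086, 691 and 409 CPM in other wells, higher in 5 of 5 libraries by 0.72 (SE 0.16, edgeR adjusted p = 6.72e-05). GAPDHS lost its call without the filter on low counts (0.45, edgeR adjusted p = 0.118).

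The pair of phosphoglycerate mutase genes, which move the phosphate group before enolase acts, moved in opposite directions. The gene pgam1a (ENSDARG00000005423) had 175, 108, 161.6, 67.2 and 67.5 CPM in granulocytes, against 287, 251, 206, 137 and 112 CPM in other wells, lower in 5 of 5 libraries (log2 difference -0.78, SE 0.26, edgeR adjusted p = 0.0114). The gene pgam1b (ENSDARG00000014068) had 140.1, 92.7, 83.5, 46.5 and 99.4 CPM in granulocytes, against 78.1, 76.7, 38.6, 34.8 and 32.9 CPM in other wells, higher in 5 of 5 libraries (0.88, SE 0.34, edgeR adjusted p = 0.0306). The call of pgam1a was lost without replicate 1 or 2 of 1 dpi (-0.69 and -0.61, edgeR adjusted p = 0.053 and 0.083) and without replicate 1 or 2 of 3 dpi (-0.69 and -0.66, edgeR adjusted p = 0.059 and 0.064). The call of pgam1b was lost without 2 dpi (0.189) and without replicate 2 of 3 dpi (0.1004), where its log2 differences were 0.78 and 0.81. Enolase row ENO1 (ENSDARG00000022456) lay at 15.5 to 139 CPM in granulocytes and 15.6 to 77.3 CPM in other wells and did not pass. The second row, ENO1 (ENSDARG00000013750), held 0 of 1176331 granulocyte transcripts and 69 of 9125963 in the other wells of the injured libraries.

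At the end of the pathway LDHB (ENSDARG00000019644), a subunit of lactate dehydrogenase, had overlapping values in the classes. It stood at 350.3, 340.0, 274.1, 336 and 238 CPM in granulocytes and 412, 469.6, 367, 237 and 189.7 CPM in other wells, higher in granulocytes at 3 dpi and lower at 1 and 2 dpi (log2 difference -0.09, edgeR adjusted p = 0.79). Both SLC16A3 rows, which encode the transporter that exports lactate, were too low for the filter but held more transcripts in granulocytes. SLC16A3 (ENSDARG00000045051) had 41 transcripts in granulocytes and 7 in other wells of all injured libraries, a ratio per transcript of 45.4 (95% counting interval 20.2 to 120.04). SLC16A3 (ENSDARG00000028583) had 15 and 6, a ratio of 19.4 (7.11 to 61.0). These intervals cover counting error only, and DESeq2, which filters on low counts in another way, called both rows higher. The median log2 difference of all genes was 0.41 in that DESeq2 fit and -0.26 in the edgeR fit. Libraries differed for SLC16A3 (ENSDARG00000045051), with granulocyte means of 62.0 ± 7.34 CPM at 3 dpi and 7.73 ± 10.9 CPM at 1 dpi (SD). The pyruvate dehydrogenase kinase rows, which restrain entry of pyruvate into the mitochondrion, were scarce: PDK1 ran from 0 to 10.3 CPM in granulocytes and from 2.33 to 8.66 CPM in other wells, and PDK3 held no granulocyte transcript.

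For glucose uptake, SLC2A1 (ENSDARG00000007412), which encodes the basal glucose transporter GLUT1 in mammals, was lower in granulocytes. It had 11.7, 0, 3.63, 10.3 and 39.1 CPM there, against 22.3, 18.1, 27.5, 66.3 and 133 CPM in other wells, lower in 5 of 5 libraries (log2 difference -2.23, SE 0.54, edgeR adjusted p = 0.000242). The granulocyte values rest on 1, 0, 2, 2 and 11 transcripts, and the count of 0 in replicate 2 of 1 dpi allows up to 46.4 CPM. The second row, SLC2A1 (ENSDARG00000001437), reached 7.10 CPM in granulocytes and 4.33 CPM in other wells of injured libraries at most and was not tested.

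Among the genes of oxygen sensing HIF1A (ENSDARG00000034293), the oxygen-regulated subunit of the factor, was the one row with enough transcripts. It had 234, 139, 247, 165 and 170.4 CPM in granulocytes, against 144, 106, 159.7, 111 and 75.4 CPM in other wells. The value was higher in 5 of 5 libraries by 0.67 (SE 0.25, edgeR adjusted p = 0.0269), and this call was lost without 2 dpi (edgeR adjusted p = 0.134), without replicate 2 of 3 dpi (0.061), with DESeq2 (0.060) and after thinning (0.130). The second alpha subunit hif1aa reached 1.82 CPM in granulocytes and 1.21 CPM in other wells. EGLN3, a prolyl hydroxylase that marks HIF for destruction, reached 11.7 and 7.97 CPM, and vhl, the recognition subunit of the ligase, had no granulocyte transcript and at most 3.19 CPM in other wells.

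Of the HIF targets NDRG1 (ENSDARG00000032849), a stress-responsive gene named for its regulation by N-myc, was the one measured well, and it was lower in granulocytes. It had 58.4, 15.5, 65.4, 51.7 and 85.2 CPM there, against 372, 308, 458, 506 and 387 CPM in other wells, with no overlap (means 55.2 ± 25.5 CPM and 406 ± 77.3 CPM, SD, n = 5 each). The log2 difference was -2.83 (SE 0.27, edgeR adjusted p = 1.19e-24). VEGFA (ENSDARG00000034700), the vascular growth factor, had 6 transcripts in granulocytes and 8 in other wells of the injured libraries, a ratio per transcript of 5.82 (95% counting interval 1.66 to 19.1). The mitophagy gene bnip4 reached 11.7 CPM in granulocytes and 11.6 CPM in other wells. P4HA1, a collagen prolyl hydroxylase, ERO1A, an oxidase of the endoplasmic reticulum, and NDRG1 (ENSDARG00000010420) had no granulocyte transcript, and at most 3.89 CPM, 1.04 CPM and 0 CPM in other wells of injured libraries.

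In the pentose phosphate pathway PGD (ENSDARG00000015343), which makes NADPH at the second oxidation of the branch, was higher in granulocytes. It had 911, 386, 746, 522 and 266 CPM there, against 264, 196, 267, 158 and 108 CPM in other wells, higher in 5 of 5 libraries by 1.43 (SE 0.21, edgeR adjusted p = 9.26e-11). The lowest granulocyte library, replicate 2 of 3 dpi, overlapped with 2 dpi of the other wells, so the groups overlapped as a whole but not within any library. TKT, transketolase of the branch's later part, lay at 0 to 17.8 CPM in granulocytes and 1.59 to 17.3 CPM in other wells and was not tested.

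**Figure D2:**
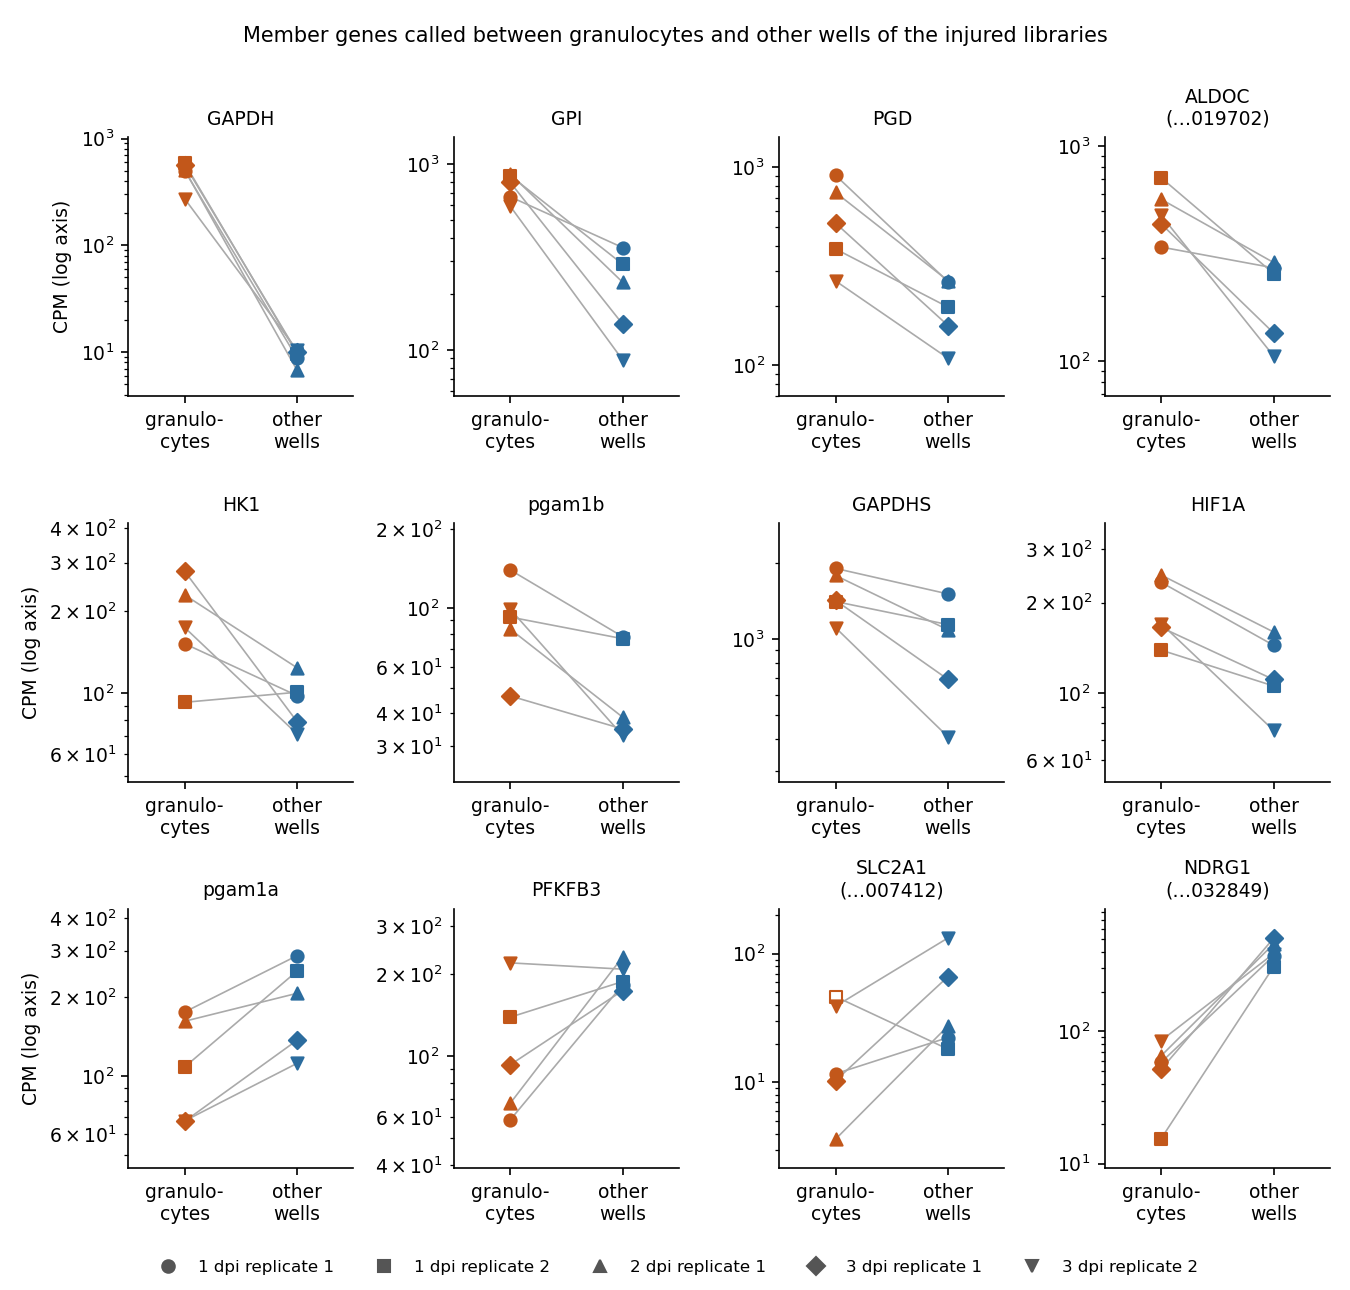
Levels (CPM, log axis) of the 12 rows called between granulocytes (left in each panel) and non-granulocyte wells (right) of the 5 injured libraries, with lines joining the 2 sums of a library and marker shapes naming the library. Lines fall from left to right in all libraries for GAPDH, GPI and PGD and climb in all for NDRG1; an open symbol marks the SLC2A1 count of 0 in replicate 2 of 1 dpi, drawn at the limit of 46.4 CPM.

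The difference in GAPDH was also seen well by well. After each well was thinned to 1000 transcripts, a GAPDH transcript was found in 34.8% and 35.3% (1 dpi), 29.7% (2 dpi) and 50% and 22.4% (3 dpi) of granulocyte wells. In other wells the shares were 1.23% and 0.559%, then 0 of 287 wells at 2 dpi, which allows up to 1.05% of wells with a transcript at this thinned depth, and 0.503% and 1.34%. Without thinning the shares of GAPDH were 50% to 89.1% in granulocytes and 3.29% to 7.67% in other wells. GAPDHS was found in most thinned granulocyte wells, 64.7% to 82.8%, against 72.4%, 68.2%, 54.0%, 43.7% and 29.5% of other wells with libraries in time order. The granulocyte share was not higher throughout: 64.7% was that of replicate 2 of 1 dpi, where other wells had 68.2%. GPI was found in 47.8%, 52.9%, 59.4%, 57.7% and 38.2% of granulocyte wells, against 23.0%, 25.7%, 14.6%, 11.6% and 8.93% of other wells. NDRG1 (ENSDARG00000032849) went the other way, with 0% to 9.21% of granulocyte wells and 23.2% to 28.9% of other wells. A thinned granulocyte well held a median of 4.5 to 6 transcripts of the 38 rows in all, and another well of an injured library 2 to 5.

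Wells near the gate on npsn and EPX were few. The 14 wells just over it, at 0.2% to 0.5%, held GAPDH at 509 CPM, GPI at 358 CPM and NDRG1 (ENSDARG00000032849) at 94.3 CPM when pooled, against 56.6, 273.9 and 189 CPM in the 26 wells just under it, at 0.1% to 0.2%. In other wells without any npsn or EPX transcript GAPDH stood at 3.00, 9.45, 5.77, 4.89 and 5.70 CPM in the 5 injured libraries. With the gate at 0.1% and at 0.5% the numbers of called rows were 12 and 11.

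In injured libraries the shares within the GAPDH and mutase pairs of paralogs lay apart between the classes, and those of the ALDOA pair did not. In leukocyte wells, those with transcripts of general leukocyte genes at 0.2% or more, GAPDHS made up 79.1% and 70.5% (1 dpi), 77.8% (2 dpi) and 71.4% and 80.2% (3 dpi) of GAPDHS and GAPDH transcripts in granulocytes. In other leukocyte wells it made up 99.5% and 99.2%, 99.4%, and 99.0% and 97.7%. At 2 dpi these shares rest on 982 GAPDHS and 281 GAPDH transcripts in granulocytes and 4111 and 26 in the others. In injured libraries the ranges did not overlap, and the exact 95% intervals of the classes lay apart in each. All non-granulocyte wells of the uninjured library held GAPDH at 184 CPM, beside GAPDHS at 956 CPM. The muscle-marked wells among them held 400 GAPDH and 1161 GAPDHS transcripts. The GAPDHS shares given for other leukocyte wells therefore hold for injured libraries only. For the mutase pair pgam1a made up 55.6%, 53.8%, 65.7%, 59.1% and 40.4% in granulocytes, against 78.0%, 76.6%, 84.2%, 77.7% and 81.3% in other leukocyte wells. Those granulocyte shares rest on 7 to 88 pgam1a transcripts, and their mean moved to 43.6% when wells were thinned, that of the others to 75.7%. ALDOA (ENSDARG00000011665) made up 82.6% to 100% of both ALDOA rows in granulocytes and 90.8% to 95.5% in the others, which overlap. No test was made of these shares, and reads of close paralogs may fall on either copy.

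**Figure D3:**
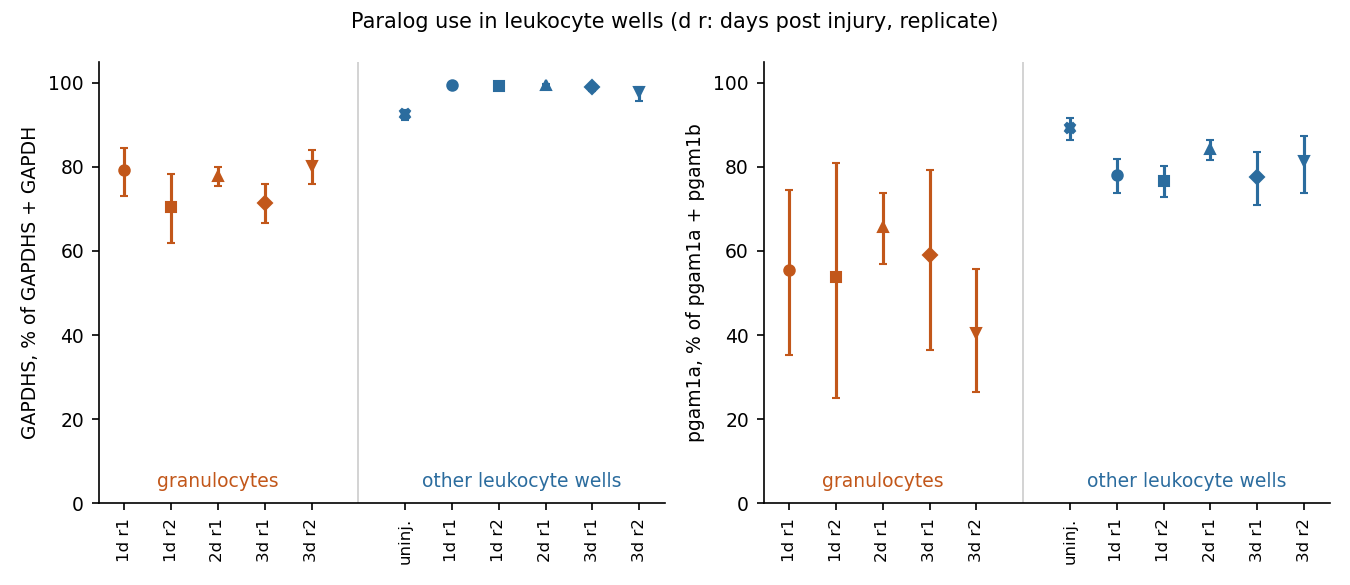
GAPDHS as a share of GAPDHS and GAPDH transcripts (%) and pgam1a as a share of pgam1a and pgam1b transcripts (%) in leukocyte wells of each library, granulocytes and other leukocyte wells side by side, with exact Clopper-Pearson 95% intervals that cover counting error only. GAPDHS shares are 70.5% to 80.2% in granulocytes and 97.7% to 99.5% in other leukocyte wells of injured libraries.

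Genes of the same pathways outside the list were taken from a second list of 72 names, of which 65 were found in 62 rows and 22 rows could be tested. Of these, 6 were higher and 5 lower in granulocytes, again beside 12.2% and 20.2% of all genes. The gene pgm1 (ENSDARG00000013561), phosphoglucomutase, which links glucose 6-phosphate with glycogen, had 374, 247, 434, 419 and 153 CPM in granulocytes, against 32.7, 7.25, 19.7, 20.7 and 6.06 CPM in other wells (log2 difference 4.29, SE 0.29, edgeR adjusted p = 1.97e-48). Its classes did not overlap. RPIA (ENSDARG00000056640), ribose 5-phosphate isomerase, was higher in 5 of 5 libraries as well (1.87, SE 0.42, edgeR adjusted p = 6.61e-05). ENO3, a further enolase named after its values were seen, had 561, 572, 1011, 625 and 586 CPM in granulocytes, against 310.2, 282, 563, 347 and 288 CPM in other wells, higher in 5 of 5 libraries (0.87, SE 0.19, edgeR adjusted p = 4.00e-05).

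MPC2 (ENSDARG00000024478), a subunit of the mitochondrial pyruvate carrier, was at 35.0, 15.5, 18.2, 93.0 and 0 CPM in granulocytes, against 137, 90.04, 73.6, 63.9 and 18.2 CPM in other wells, lower in 4 of 5 libraries (-1.37, SE 0.41, edgeR adjusted p = 0.00424, lost without 2 dpi at 0.079). SLC16A1 (ENSDARG00000068572), a monocarboxylate transporter, was at 0, 0, 27.2, 20.7 and 21.3 CPM, against 82.9, 61.6, 53.2, 64.7 and 59.8 CPM in other wells (-1.74, SE 0.45, edgeR adjusted p = 0.000623). DDIT4, a stress-induced inhibitor of growth signalling, held 4 granulocyte transcripts at 2 dpi, 5 in replicate 2 of 3 dpi and 0 in the other libraries (-1.82, SE 0.67, edgeR adjusted p = 0.0239), and its call was lost when any 1 of the 5 was left out (edgeR adjusted p = 0.056 to 0.088). Glucose transporters outside the list were named after their values were seen. Transcripts of slc2a3b were at 654, 788, 675, 868 and 1040.3 CPM in granulocytes, against 276, 436, 342, 386 and 379 CPM in other wells (1.097, SE 0.19, edgeR adjusted p = 4.22e-08), higher in 5 of 5 libraries. SLC2A6 was lower (-0.96, SE 0.19, edgeR adjusted p = 3.61e-06).

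Among non-granulocyte wells of injured muscle, SLC2A1 (ENSDARG00000007412) was the only one of 29 tested rows called between 3 and 1 dpi. It stood at 66.3 and 133 CPM at 3 dpi, against 22.3 and 18.1 CPM at 1 dpi, with 27.5 CPM at 2 dpi and 67.6 CPM in uninjured larvae. Both values at 3 dpi lay above both at 1 dpi, a log2 change of 2.21 (SE 0.54, edgeR adjusted p = 0.0119). Over all 12911 genes tested 7.3% were called, 4.72% higher and 2.58% lower, so 1 of 29 was below the background share. At an unadjusted p under 0.05 there were 10 of the 29 rows and 3284 of the 12911 genes. SLC2A1 was not called with library size alone, where 60 of 12911 genes were called. Nor was it called in the fit of only the 1 and 3 dpi libraries, which called 0 of 8135 genes. The call was lost without replicate 1 or 2 of 1 dpi (log2 change 2.42 and 2.04, edgeR adjusted p = 0.383 and 0.390), and 14 rows were called without replicate 1 of 3 dpi, where 3952 of 13311 genes were called.

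Both SLC2A1 (ENSDARG00000007412) and markers of metaphocytes were higher at 3 dpi than at 1 dpi in non-granulocyte wells. SLC2A1 was also higher at 3 dpi in wells not marked by metaphocyte genes. The summed level of the markers in non-granulocyte wells was 0.144% and 0.241% at 3 dpi, against 0.0557% and 0.0100% at 1 dpi. All 6 listed markers were detected in both libraries of 3 dpi, and 6 and 5 in those of 1 dpi. In wells marked by metaphocyte genes at 0.5% or more, SLC2A1 stood at 345 CPM in 15 wells and 410 CPM in 22 wells at 3 dpi and at 292 CPM in 5 wells of replicate 1 of 1 dpi, where replicate 2 had no such well. In all other non-granulocyte wells it stood at 46.2 and 97.6 CPM at 3 dpi, against 17.8 and 18.1 CPM at 1 dpi. Without the marked wells, an alternative added after seeing the data, the change was 1.99 (edgeR adjusted p = 0.0439), and in leukocyte wells alone 2.32 (edgeR adjusted p = 0.00528). A metaphocyte marker transcript was found in 48.7% and 40.2% of non-granulocyte wells at 3 dpi, and in 34.2% and 36.3% at 1 dpi. Wells below the mark of 0.5% therefore also held such transcripts. The part of metaphocytes in the SLC2A1 change was not tested. NDRG1 (ENSDARG00000032849) was low in the marked wells, at 24.7 and 15.5 CPM at 3 dpi, where the remaining wells had 541 and 434 CPM. The marker lists of metaphocytes and keratinocytes both name epcam, and keratinocyte markers were at 1.38% and 0.234% at 3 dpi. Whether some marked wells held keratinocytes was not tested.

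**Figure D4:**
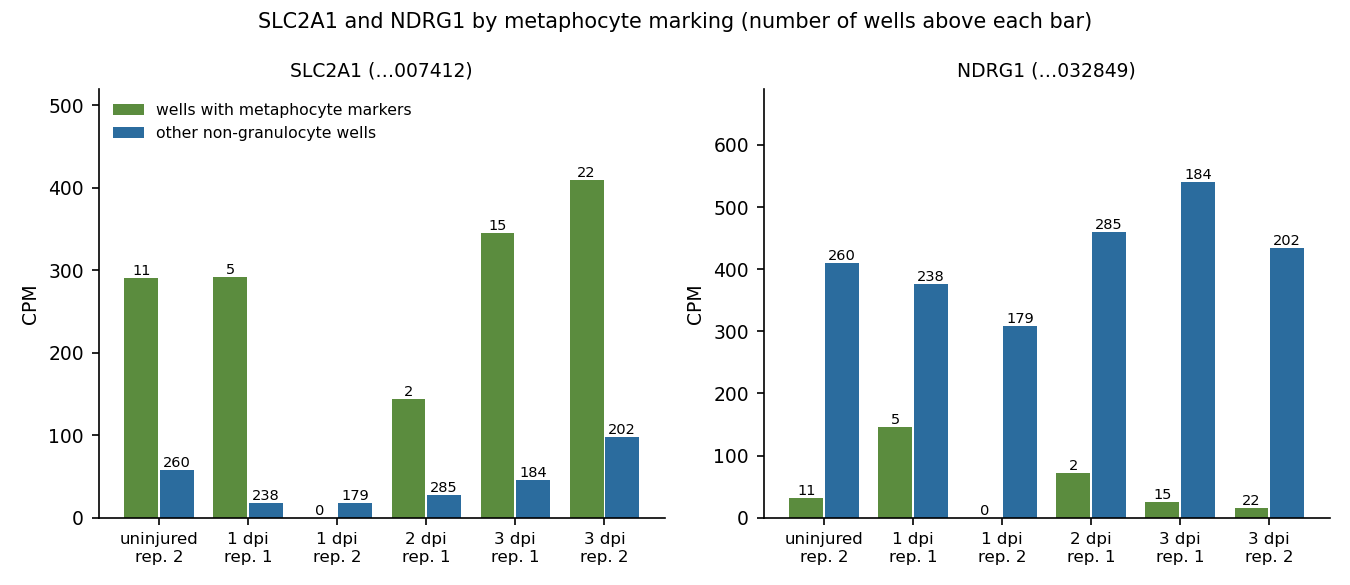
Levels (CPM) of SLC2A1 and NDRG1 in metaphocyte-marked wells and in the other non-granulocyte wells of each library, as bars with the number of wells above them. SLC2A1 is higher in the marked wells of each library that has any, 144 to 410 CPM, and NDRG1 is lower there, 15.5 to 145.8 CPM.

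Most enzymes of glycolysis were lower at 3 dpi (age 7 dpf) than at 1 dpi (age 5 dpf) in the non-granulocyte wells without passing the test. GPI had 138 and 88.3 CPM at 3 dpi, against 355 and 289 CPM at 1 dpi (log2 change -1.48, SE 0.51, edgeR adjusted p = 0.0578). GAPDHS had 691 and 409 CPM at 3 dpi, against 1508 and 1139.7 CPM at 1 dpi (-1.23, SE 0.56, edgeR adjusted p = 0.156). The times did not overlap for either gene, yet the distance between the 3 dpi replicates was large. In lower glycolysis 5 of 6 rows lay apart in this direction, with a median log2 change of -1.19, and over all roles 14 of 29 rows lay apart lower and 8 higher, where 27.0% and 28.8% of all genes did. The median over the 29 rows was -0.41, and over all genes 0.24. ALDOC (ENSDARG00000019702) had 135 and 106 CPM at 3 dpi, against 271 and 255 CPM at 1 dpi (-1.12, edgeR adjusted p = 0.144). LDHB had 237 and 189.7 CPM, against 412 and 469.6 CPM (-1.03, edgeR adjusted p = 0.188), and pgam1a 137 and 112 CPM, against 287 and 251 CPM (-1.11, edgeR adjusted p = 0.147). Without replicate 1 of 3 dpi, GPI (-2.14), GAPDHS (-1.97), ALDOC (-1.58), pgam1a (-1.54) and LDHB (-1.48) passed, among the 14 rows, at edgeR adjusted p-values of 0.000394 to 0.0137, beside the 3952 of 13311 genes that this fit called. With thinned wells ALDOC (-1.44, edgeR adjusted p = 0.0226) and GAPDHS (-1.16, edgeR adjusted p = 0.0464) passed. None of these enzymes passed in leukocyte wells alone or without wells marked by muscle, keratinocyte or fibroblast genes. The fit without replicate 1 of 3 dpi holds only replicate 2 of that time, the library with the lower values. When replicate 2 was left out instead, none of these enzymes was called. The summed macrophage markers were also lower, 0.712% and 0.463% at 3 dpi against 1.18% and 1.13% at 1 dpi, and those of keratinocytes were at 1.38% in replicate 1 of 3 dpi and at 0.078% to 0.234% in the other libraries of 1 and 3 dpi. Leukocyte wells were 147 of 199 and 156 of 224 non-granulocyte wells at 3 dpi, against 221 of 243 and 177 of 179 at 1 dpi. The part of these shifts in the glycolysis values was not tested.

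PFKFB4 had 63.9 and 103.9 CPM at 3 dpi, against 38.3 and 36.9 CPM at 1 dpi (log2 change 1.09, SE 0.51, edgeR adjusted p = 0.166), and passed when wells were thinned (1.81, edgeR adjusted p = 0.0239), where 594 of 4870 genes were called. PFKFB3 had a log2 change of 0.02 (edgeR adjusted p = 0.992), NDRG1 (ENSDARG00000032849) was at 506 and 387 CPM at 3 dpi, against 372 and 308 CPM at 1 dpi (0.40, edgeR adjusted p = 0.627), and HIF1A at 111 and 75.4 CPM, against 144 and 106 CPM (-0.40, edgeR adjusted p = 0.619). GAPDH was scarce at both times, 9.95 and 10.4 CPM against 8.77 and 9.67 CPM (0.12, edgeR adjusted p = 0.925).

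**Figure D5:**
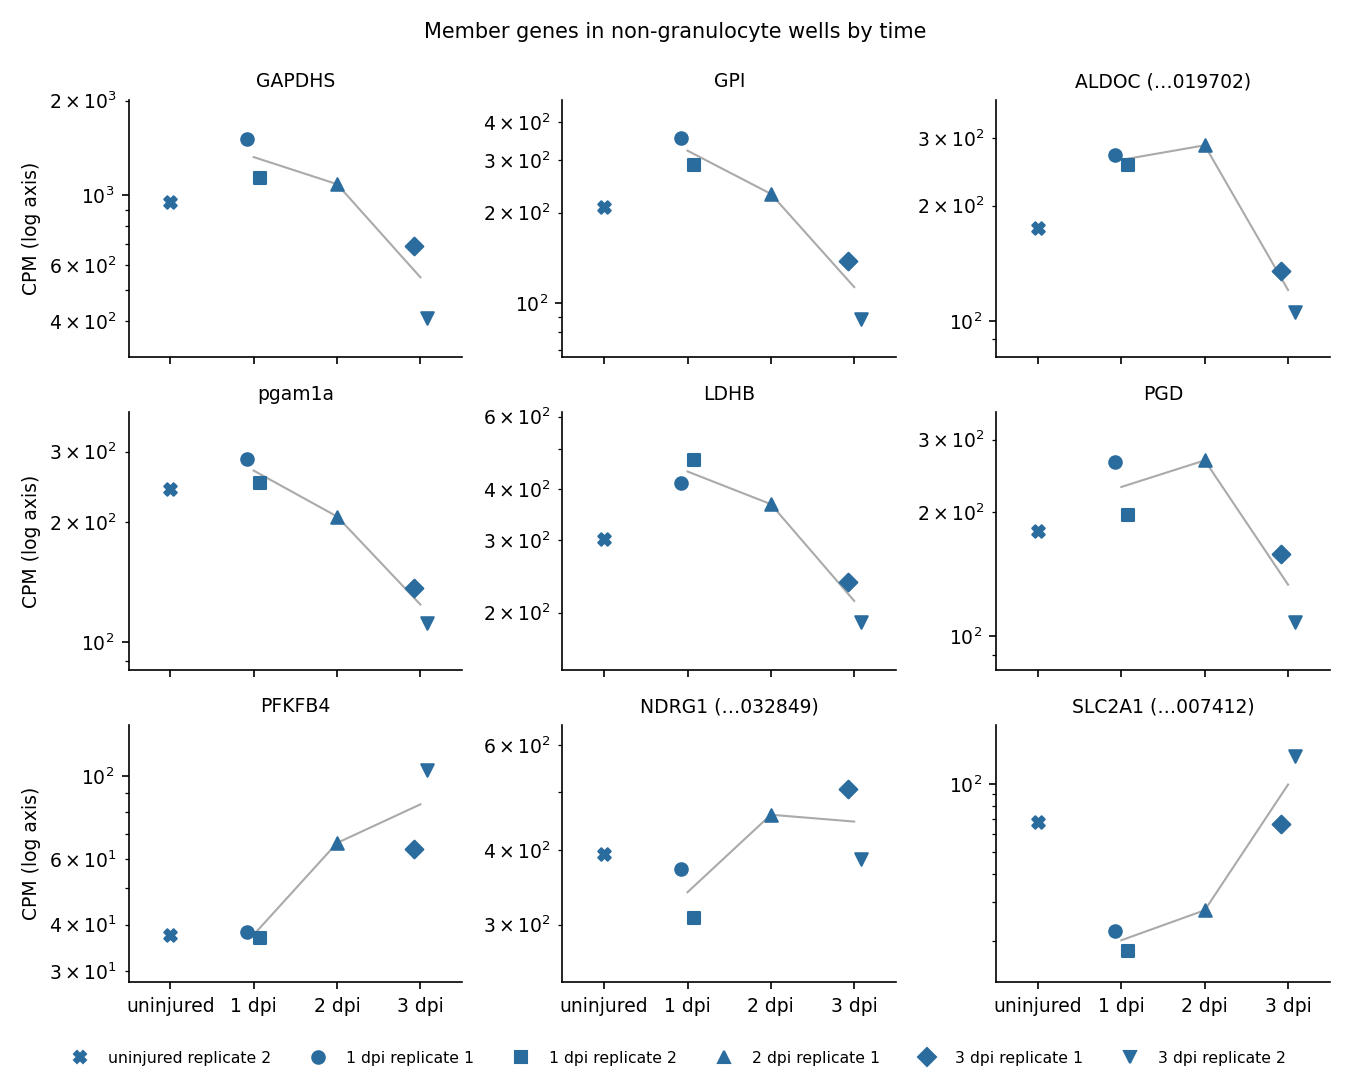
Levels (CPM, log axis) of 9 rows in non-granulocyte wells of the uninjured library and of libraries at 1, 2 and 3 dpi, each point 1 library, with a line through the means of the injured times. GAPDHS, GPI, ALDOC, pgam1a and LDHB are lower in both libraries of 3 dpi than in both of 1 dpi, and SLC2A1 is higher, at 66.3 and 133 CPM against 22.3 and 18.1 CPM.

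Of the second list 46 of 62 rows were tested between 3 and 1 dpi in non-granulocyte wells, and 1 rose and 1 fell. PDK2 (ENSDARG00000020876), a kinase that restrains pyruvate dehydrogenase, fell to 4.15 and 5.20 CPM at 3 dpi, against 31.9 and 35.7 CPM at 1 dpi (log2 change -2.87, SE 0.77, edgeR adjusted p = 0.0197). PDK2 was not called in the fit of only the 1 and 3 dpi libraries, which called 0 of 8135 genes. The call was lost without replicate 1 or 2 of 1 dpi (edgeR adjusted p = 0.413 and 0.368) and without the uninjured library (0.0520).

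Within granulocytes 0 of 19 tested rows were called between 3 and 1 dpi by edgeR, beside 0.48% of all genes (0.3% higher and 0.18% lower), and 3 had an unadjusted p under 0.05, as did 351 of 3333 genes: PFKFB4 (31.0 and 128 CPM at 3 dpi, against 11.7 and 30.9 CPM at 1 dpi), ALDOA (ENSDARG00000034470) and SLC16A3 (ENSDARG00000045051). DESeq2 called 0 as well. Times lay apart for 4 rows higher and 4 lower, where 20% and 20.5% of all genes did. GPI was at 796 and 593 CPM at 3 dpi, against 666 and 865 CPM at 1 dpi, with overlapping times (log2 change 0.01, SE 0.37, edgeR adjusted p = 0.997). The change of GPI with time differed between the classes by 1.37 (SE 0.37, edgeR adjusted p = 0.0468), the 1 call among 20 rows in the test of that difference, which called 0.477% of all genes. The difference lost its call when any 1 library was left out (edgeR adjusted p = 0.146 to 0.770) and in leukocyte wells (1.04, edgeR adjusted p = 0.146). GAPDHS had a difference of 0.90 between the classes that did not pass (SE 0.29, edgeR adjusted p = 0.208).

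Between injured and uninjured larvae 2 of 29 rows were lower in non-granulocyte wells of the injured libraries and 0 were higher, beside 2.99% of all genes called, 2.88% lower and 0.108% higher. Tissue and age differ together with injury here, since the uninjured library came from whole larvae at 4 dpf, so their parts cannot be told apart. GAPDH stood at 6.74 to 10.4 CPM in the 5 injured libraries and at 184 CPM in the uninjured one (log2 difference -4.28, SE 0.52, edgeR adjusted p = 1.05e-08). Skeletal muscle markers made up 0.0033% to 0.0169% of these transcripts in injured libraries and 1.36% in the uninjured library. In its 209 muscle-marked wells GAPDH was at 284 CPM and in the other 62 at 46.2 CPM, and without wells marked by muscle, keratinocyte or fibroblast genes the difference did not pass (-2.34, edgeR adjusted p = 0.131). In leukocyte wells alone GAPDH passed (-3.21, edgeR adjusted p = 7.52e-06). The leukocyte gate does not take out muscle-marked wells: 201 of the 271 uninjured wells passed it and 209 were muscle-marked, so the groups overlap. The fit without wells marked by other tissues kept only 56 uninjured wells. The part of muscle transcripts in the GAPDH difference was not tested. With all wells of at least 500 transcripts and no upper limit the difference of GAPDH was -7.36. That setting brings in 18 uninjured wells over 50000 transcripts, where GAPDH was at 1907 CPM. SLC2A1 (ENSDARG00000001437) stood at 0, 1.81, 1.56, 0.829 and 4.33 CPM in injured libraries and at 38.4 CPM in the uninjured one (-4.44, SE 0.88, edgeR adjusted p = 0.000378). Of its uninjured transcripts 92 lay in the 209 muscle-marked wells and 1 in the other 62. Its call was lost with library size alone (edgeR adjusted p = 0.0551) and with DESeq2 (0.150), and the row was too low to be tested with thinned wells, in leukocyte wells and without wells marked by other tissues. Libraries lay apart for 8 rows lower and 0 higher, where 17.9% and 6.81% of all genes did.

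Of the uncalled rows, GAPDHS, at 409 to 1508 CPM in injured libraries, stood at 956 CPM in the uninjured one, GPI at 88.3 to 355 CPM and 209.5 CPM, and NDRG1 (ENSDARG00000032849) at 308 to 506 CPM and 394 CPM. ALDOA (ENSDARG00000034470) was at 12.1 to 44.7 CPM in injured libraries and 112 CPM in the uninjured one and did not pass (-1.72, edgeR adjusted p = 0.0714), nor did TKT, at 1.59 to 17.3 CPM and 21.4 CPM (-2.26, edgeR adjusted p = 0.244). Of 46 tested rows of the second list 5 were lower in injured libraries and 0 higher. PGAM2, the muscle form of phosphoglycerate mutase, was at 0 to 0.778 CPM in injured libraries and 29.3 CPM in the uninjured one (edgeR adjusted p = 1.00e-04). SLC16A1 (ENSDARG00000016963) was at 0 to 1.73 CPM and 23.1 CPM (edgeR adjusted p = 0.000858), and fbp1b, of gluconeogenesis, at 0 to 3.19 CPM and 18.6 CPM (edgeR adjusted p = 0.0390). P4HA2, a collagen prolyl hydroxylase, was lower too, at 0 to 13.6 CPM and 53.2 CPM (edgeR adjusted p = 0.00398). Among the alternatives, ALDOA (ENSDARG00000034470) passed with thinned wells (log2 difference -2.40). Both this row and TKT passed with wells of at least 500 transcripts and no upper limit (-4.15 and -3.23). Neither was called with RLE factors, library size alone, DESeq2 or leukocyte wells alone. With 1 uninjured library, its spread was assumed to equal that of the replicated groups. The 5 granulocyte wells of the uninjured library, too few for a test, held GAPDH at 773 CPM, GPI at 1252 CPM and GAPDHS at 2638 CPM. Skeletal muscle markers made up 0.600% of the transcripts in these wells, against 0.0105% to 0.0245% in granulocytes of injured libraries. Only 3 of the 5 were free of marking by muscle, keratinocyte or fibroblast genes. The part of other tissue in these levels was not tested.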

How the data were processed

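Values deposited per gene and well are expected counts, the authors' transcript numbers after a correction for identifier collisions, judged from the values; they were rounded to whole numbers here. Per the submitters' processing notes, BWA was used with the build Zv9; for the counter and annotation, nothing was given in the sources used here. Gene symbols came from a table of identifiers and names that matched 19001 of 25131 gene rows (75.6%). Spike-ins, 1.19% to 16.1% of each library, were left out. No doublet caller was run, since wells received single sorted events; 19 wells over 50000 transcripts were left out. Sums over wells of a class per library, of at least 10 wells, were tested with edgeR 4.0.16 in R 4.3.3 (TMM, filterByExpr, robust quasi-likelihood test, Benjamini-Hochberg adjustment over all genes, calls at adjusted p under 0.05). DESeq2 1.42.0, RLE factors and thinning to 1000 transcripts were among the alternatives. The edgeR code was also run on simulated counts. Their spread was set below the 47.5% (coefficient of variation) fitted between 3 and 1 dpi in non-granulocyte wells. That run therefore cannot show the error rate of this comparison. Replicates differed by more than counting noise (chi-square over its degrees of freedom, 13.9 at 1 dpi and 23.9 at 3 dpi). The library block pairs the sums of 1 plate. Genes are named if called (up to 12 per comparison, 6 of the second list) or highest in their role. The members, lists, gates and tests were chosen with earlier results of these data known. Figures and summaries used Python 3.11.15. Some tested rows of the second list are not reported here.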

Additional observations from a re-analysis of the deposited data

Results flagged for a closer look

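For GPI, glucose-6-phosphate isomerase, the change from 1 to 3 dpi differed between granulocytes and non-granulocyte wells by 1.37 on the log2 scale (SE 0.37, edgeR adjusted p = 0.0468), by a test of the difference itself. The log2 change was 0.01 in granulocytes, with 796 and 593 CPM at 3 dpi against 666 and 865 CPM at 1 dpi. It was -1.48 in non-granulocyte wells, with 138 and 88.3 CPM at 3 dpi against 355 and 289 CPM at 1 dpi. The call was lost when any 1 library was left out, under RLE factors, DESeq2, no filter, thinning, leukocyte wells only, no wells of other tissues and a gate of 0.5%. The cause was not tested.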

How the results depend on the processing

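Of the values for single named genes, 921 kept their side of the threshold over the alternatives, 89 lost and 7 gained a call, and 0 reversed a call. The 921 include any value that changed direction but passed in neither fit. The number of called rows moved as follows. Between 3 and 1 dpi in non-granulocyte wells 1 row was called, with 0 for library size alone and 0 when 2 dpi and uninjured were both left out of the fit, 4 with thinned wells and 5 with a replicate block; leaving out 1 library gave 0 to 14, the 14 without replicate 1 of 3 dpi, where a lone library is assumed to vary like the others. Same-numbered libraries of 1 and 3 dpi deviated together (correlation 0.31 in non-granulocyte wells and 0.33 in granulocytes), but 2 pairs share only a number. Between injured and uninjured larvae 2 rows were called, with 1 for library size alone, 1 with DESeq2, 1 in leukocyte wells, 0 without wells of muscle, keratinocyte or fibroblast markers and 8 with wells of at least 500 transcripts and no upper limit, which changes both limits at once; leaving out 1 library gave 2 to 6, and without the uninjured library this comparison has no value. Between granulocytes and other wells 12 rows were called, 6 with no library block (class alone) and 10 to 15 with 1 library left out. Within granulocytes, leaving out 1 library gave 0 to 0. For the difference between the classes 1 row was called, with 0 under RLE factors, DESeq2, no filter, thinning, leukocyte wells only, no wells of other tissues and a gate of 0.5%, and 0 to 0 with 1 library left out. Over all genes, the calls between 3 and 1 dpi were 609 higher and 333 lower, but 18 and 42 with library size alone, and 0 of 8135 genes with only the 1 and 3 dpi libraries. Those of the difference were 14 and 14, but 8 and 18 with RLE factors, and within granulocytes 10 and 6, but 6 and 7 with library size alone. The median log2 value of all genes was -0.16 with library size alone and -0.03 with TMM for injured minus uninjured, -0.05 and 0.06 for granulocytes over time, and 0.10 with RLE and 0.22 with TMM for the difference. Thinning moved the mean pgam1a share to 43.6% in granulocytes and 75.7% in other leukocyte wells. Few granulocyte transcripts at 1 dpi limit rows under about 46.4 CPM.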

Other observations

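In the uninjured library 18 wells held over 50000 transcripts and entered only the alternative without an upper limit. Pooled, they had GAPDH at 1907 CPM, against 184 CPM in the non-granulocyte wells of that library below that limit, while NDRG1 (ENSDARG00000032849) was at 106 CPM, against 394 CPM, and GPI at 219 CPM, against 209.5 CPM. The 1 such well at 2 dpi held no GAPDH transcript.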
